A study of Saccharomyces cerevisiae with 12 samples.

Results

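The 10 genes described here are cytosolic heat shock and chaperone genes of budding yeast, chosen by name from a table of 6607 identifiers, and each of them passed the filter on low values. They are the Hsp70 genes SSA1 (YAL005C), SSA2 (YLL024C), SSA3 (YBL075C) and SSA4 (YER103W), and the Hsp90 genes HSP82 (YPL240C) and HSC82 (YMR186W). The others are the disaggregase gene HSP104 (YLL026W), the small heat shock protein genes HSP26 (YBR072W) and HSP42 (YDR171W), and HSP12 (YFL014W). HSP12 codes for a small membrane-associated stress protein. SSA1, SSA2 and HSC82 were taken as the 3 constitutive members and the other 7 as stress-induced. HSP82 and HSP104 also have a basal level without stress, so the classes are not sharp.

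RNA that carries NAD+ in place of the usual cap was captured by exchanging its nicotinamide for an alkyne with the enzyme ADP-ribosylcyclase (ADPRC), adding biotin to the alkyne and binding to streptavidin. Mock libraries passed through the same steps without the enzyme, so their content is the background of the capture. All 4 groups came from BY4742, a haploid alpha strain with deletion alleles of HIS3, LEU2, LYS2 and URA3, grown to mid-log phase (OD600 near 0.5) with 2% dextrose and with no heat shock in the labels. The groups were minimal medium mock, minimal medium ADPRC, YEPD mock and YEPD ADPRC, where minimal medium is yeast nitrogen base with an amino acid mixture and YEPD is the rich medium of yeast extract, peptone and dextrose. Each group held 3 libraries, and 1 YEPD ADPRC library is called unnumbered because its column of values carries no replicate number. Whether replicates came from separate cultures is not in the labels, and the spread behind each p-value may therefore be technical only.

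Chaperones bind unfolded proteins and keep them soluble. Hsp70 works in cycles of ATP hydrolysis with J-domain partners and nucleotide exchange factors, Hsp90 matures kinases and receptors with its own cochaperones, Hsp104 pulls chains out of aggregates, and the small heat shock proteins coat or collect misfolded proteins. In yeast, heat induces many of these genes through the transcription factor Hsf1, and general stress or slow growth induces part of them through Msn2 and Msn4.

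Libraries held 3246900 to 13958188 reads. Every member had at least 46 reads in each library, well above a floor of 3 reads. The open reading frames lying in ribosomal DNA took 30.9% to 54.7% of the reads of minimal medium libraries and 65.9% to 82.0% of those of YEPD libraries, and the 10 members took 1.52% to 2.40% of the reads outside those frames. YEPD ADPRC replicate 2 stood apart: its chi-square per degree of freedom against the other libraries of its group was 199 and 215, against 5.35 between those other libraries. The alpha-cell markers summed to 4092 to 11668 normalized counts per library and the a-cell markers to 45.1 to 115, a makeup of alpha cells. LEU2, LYS2 and URA3 were at 0 in every library, while HIS3 held 89.5 to 238 normalized counts. The HIS3 allele of this strain is an internal deletion that leaves other parts of the gene, and the table of counts per gene does not show where in HIS3 the reads lie, so HIS3 checks nothing here.

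Among the members, the constitutive Hsp70 transcripts had the highest values and SSA3 the lowest in all 4 groups. The scale is normalized counts per 1000 bases of coding length. These are levels in RNA recovered after capture or mock treatment. No group held RNA taken before those steps, so the order need not be that of transcript levels in the cells. In minimal mock libraries SSA2 stood at 12666 ± 487 (SD, n = 3), rank 19 of 5418 genes, and SSA1 at 10820.4 ± 426, rank 24. HSC82 followed at 3447 ± 48.0. HSP82 (1879 ± 89.1), HSP104 (1817 ± 99.3), HSP42 (1693 ± 101) and HSP12 (1472 ± 194) formed a run in which each level overlapped the next across libraries. SSA4 at 395 ± 39.2, HSP26 at 287 ± 20.4 and SSA3 at 46.5 ± 4.95, rank 4169, closed the order without overlap. In minimal ADPRC libraries the same order per 1000 bases held at the top and bottom, but HSP42 moved up to 3472 ± 234, where it overlapped HSC82 (3972 ± 267) and no longer HSP104 (1877 ± 113). Reads are from bulk cultures, so fewer cells with a transcript and less of it per cell cannot be told apart.

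**Figure D1:**
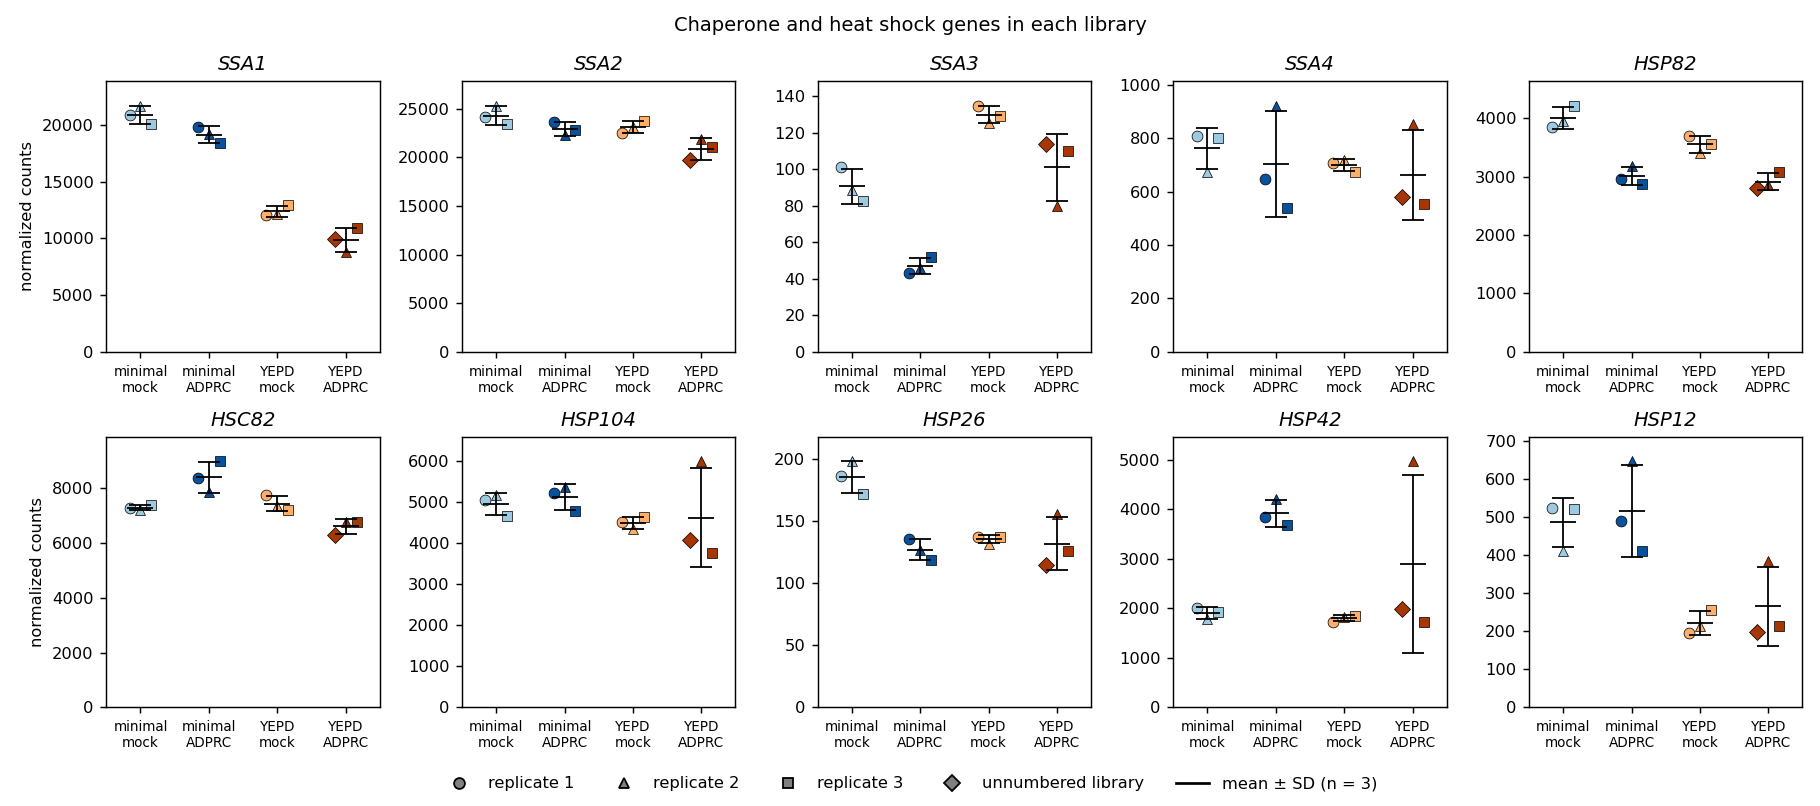
Normalized counts of each of the 10 genes in each library (y axis, linear from 0, a separate scale per gene), by group on the x axis; symbols mark the replicate number, and bars give the mean ± SD of 3 libraries. SSA1 and HSP12 lie higher in minimal medium than in YEPD in mock libraries and in ADPRC libraries, HSP42 is high in the 3 minimal ADPRC libraries and in 1 YEPD ADPRC library, and SSA3 is lowest in minimal ADPRC.

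In minimal medium, 1 member was higher after ADPRC capture than in mock libraries and 3 were lower. HSP42, a small heat shock protein that gathers misfolded proteins into cytosolic foci, rose 2.05-fold. SSA3 fell to 0.525 of its mock level, HSP26 to 0.686 and HSP82 to 0.751. A rise here means more of the transcript in the captured RNA than in the mock background, relative to other transcripts, and is not a share of molecules that carry the cap. Over all 5490 tested genes, 14.2% were called higher and 14.6% lower by limma at an adjusted p of 0.05, so the members' counts of 1 and 3 of 10 are read against those shares. All 4 called members were among the 7 stress-induced genes; the difference between the classes was not tested. The members' median log2 change was -0.10, beside 0.01 for all tested genes.

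The Hsp70 genes came out unevenly. SSA3, a heat-induced Hsp70 with little expression in growing cells, read 101, 88.4 and 82.3 normalized counts in mock replicates 1, 2 and 3 and 43.1, 46.1 and 51.9 in ADPRC replicates. Every ADPRC library lay below every mock library, and the log2 change was -0.93 ± 0.15 (SE; limma, adjusted p = 0.0019). SSA3 was low in these libraries, and its values rest on 46 to 84 reads per library. SSA1, an Hsp70 gene taken here as constitutive, read 20881, 21689 and 20047.4 in mock and 19836, 19166 and 18378 in ADPRC libraries. Its groups did not overlap either, but the log2 change of -0.13 ± 0.13 was not past the test (adjusted p = 0.47). SSA2, its near-identical paralog, read 24137, 25333 and 23488 in mock and 23688, 22311 and 22837 in ADPRC libraries, which overlapped (-0.08 ± 0.13, adjusted p = 0.641). SSA4, the strongly heat-induced Hsp70, read 808, 674 and 802 in mock and 648, 921 and 537 in ADPRC libraries, so ADPRC replicate 2 lay above every mock library and the other two below (-0.15 ± 0.19, adjusted p = 0.567).

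Of the Hsp90 pair in minimal medium, HSP82 passed the test and HSC82 did not. HSP82, the copy that heat induces, read 3842, 3954 and 4212 in mock and 2959, 3175 and 2879 in ADPRC libraries. The groups did not overlap, and the log2 change was -0.41 ± 0.10 (limma, adjusted p = 0.013), or -0.40 without minimal ADPRC replicate 1 (adjusted p = 0.0516). With a trend of change with coding length removed, it was -0.19 (adjusted p = 0.187), which ended the call. HSC82, the constitutive copy, read 7297, 7201 and 7404 in mock and 8383, 7863 and 8992 in ADPRC libraries. All 3 ADPRC libraries were above all 3 mock libraries, but the log2 change of 0.20 ± 0.11 was not past the test (adjusted p = 0.176). Counted without overlap between groups, 2 members were higher and 4 lower, beside 27.5% and 27.3% of all tested genes.

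HSP104, the disaggregase, read 5035, 5175 and 4652 in mock and 5219.8, 5364 and 4771 in ADPRC libraries of minimal medium. The groups overlapped and the log2 change was 0.05 ± 0.15 (adjusted p = 0.837).

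The small heat shock protein genes HSP42 and HSP26 went in opposite directions. HSP42 read 2016, 1789 and 1924 normalized counts in mock and 3855, 4206 and 3689.6 in ADPRC libraries. The lowest ADPRC library was far above the highest mock library, and the log2 change was 1.04 ± 0.28 (limma, adjusted p = 0.0175). The standard error of HSP42 was 0.28 with all libraries in the shared model and 0.0692 without YEPD ADPRC replicate 2. Leaving out minimal ADPRC replicate 1 or 2 or minimal mock replicate 2 left changes of 1.05, 0.98 and 0.99 with adjusted p of 0.0544, 0.0663 and 0.0607, and with the coding-length trend removed it was 0.92 (adjusted p = 0.0551). HSP26, which forms large oligomers that hold unfolded proteins, read 186, 198 and 172 in mock and 135, 127 and 119 in ADPRC libraries. Its groups did not overlap (-0.54 ± 0.12, adjusted p = 0.00989). HSP12, a small membrane-associated stress protein, read 524, 412 and 521 in mock and 489, 647 and 411 in ADPRC libraries, which overlapped (0.07 ± 0.23, adjusted p = 0.837).

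With each library scaled to the same total, the median of all tested genes moved to 0.44 and the split of calls from 780 higher and 803 lower to 2488 higher and 49 lower. Under that scaling HSP82 stood at 0.02 (adjusted p = 0.918) and HSP26 at -0.11 (adjusted p = 0.628), while SSA3 (-0.51, adjusted p = 0.0142) and HSP42 (1.47, adjusted p = 0.00692) were still called.

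**Figure D2:**
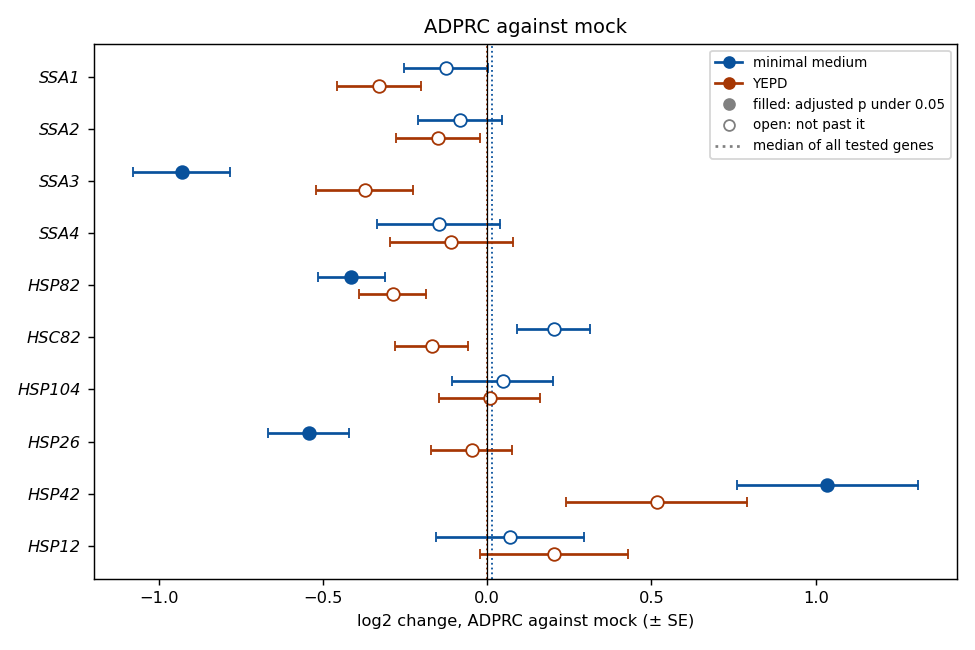
Log2 change of ADPRC against mock (x axis, ± SE) for each of the 10 genes, in minimal medium and in YEPD; filled points had an adjusted p under 0.05 and dotted lines mark the median of all tested genes. In minimal medium HSP42 (1.04) is filled on the right and SSA3 (-0.93), HSP26 (-0.54) and HSP82 (-0.41) on the left, and no YEPD point is filled.

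In YEPD, no member passed the test for ADPRC against mock (0 of 10 by limma and by edgeR, 1 by DESeq2, 3 at an unadjusted p under 0.05), where 4.92% of all tested genes were called higher and 0.546% lower. The members' log2 changes ran from -0.37 to 0.52. In 5 members every ADPRC library was nevertheless below every mock library, beside 17% of all tested genes, and in 0 was every one above, beside 15.2%. The 5 were the 3 constitutive genes SSA1, SSA2 and HSC82 with SSA3 and HSP82.

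SSA1 read 12090.2, 12142 and 12940.3 normalized counts in YEPD mock replicates 1, 2 and 3 and 9966, 8792 and 10892.5 in the unnumbered ADPRC library and ADPRC replicates 2 and 3 (-0.33 ± 0.13, adjusted p = 0.124). SSA2 read 22533, 23183 and 23787 in mock and 19710.2, 21907 and 21070.1 in ADPRC libraries in the same order (-0.15 ± 0.13, adjusted p = 0.45). SSA3 read 135, 125 and 129 in mock and 114, 80.0 and 109.7 in ADPRC libraries (-0.37 ± 0.15, adjusted p = 0.129). In these Hsp70 genes the groups were separate, but by less than the test required. SSA4 read 706, 718 and 674 in mock and 578, 854 and 552 in ADPRC libraries, so that replicate 2 was above all mock libraries and the other ADPRC libraries below them (-0.11 ± 0.19, adjusted p = 0.735).

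HSP82 read 3698, 3400.0 and 3558 in YEPD mock and 2800.5, 2858 and 3071 in ADPRC libraries. These did not overlap, and the log2 change was -0.29 ± 0.10 (adjusted p = 0.105). DESeq2 on recovered reads called this gene lower (-0.34, adjusted p = 0.0356). HSC82 read 7739.9, 7366 and 7211 in mock and 6294, 6772 and 6782 in ADPRC libraries (-0.17 ± 0.11, adjusted p = 0.321). All ADPRC values of this constitutive Hsp90 gene were thus below mock in YEPD and above mock in minimal medium, with neither change past the test.

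HSP104 read 4519.6, 4336 and 4629.8 in YEPD mock and 4079, 5991 and 3768 in ADPRC libraries (0.01 ± 0.15, adjusted p = 0.983). HSP42 read 1729, 1832 and 1845 in mock and 1985, 4973 and 1729 in ADPRC libraries (0.52 ± 0.28, adjusted p = 0.232). The change of HSP42 rested on replicate 2, the library that stood apart: without it the log2 change was 0.04 (adjusted p = 0.825), and without ADPRC replicate 3 it was 0.80 (adjusted p = 0.045). HSP12 read 195, 214 and 256 in mock and 199, 384 and 213 in ADPRC libraries (0.20 ± 0.23, adjusted p = 0.574). HSP26 read 137, 131 and 137 in mock and 114, 156 and 126 in ADPRC libraries (-0.05 ± 0.12, adjusted p = 0.827). ADPRC replicate 2 held the highest value of its group in 6 members, among them HSP26, HSP42 and HSP12. Without it, HSP82 (-0.28, adjusted p = 0.0148) and SSA1 (-0.25, adjusted p = 0.0203) were called lower in YEPD.

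The ADPRC change itself did not differ between media past the test for any member, with 0% of all tested genes called by limma. At an unadjusted p under 0.05 there were 3 members and 462 of all genes, and edgeR and DESeq2 called 0. The 3 members were HSP26 (minimal minus YEPD, -0.50 ± 0.17, adjusted p = 0.428), SSA3 (-0.56 ± 0.21, adjusted p = 0.447) and HSC82 (0.37 ± 0.16, adjusted p = 0.545). HSP42 had a difference of 0.52 ± 0.39 (adjusted p = 0.795). This outcome depended on YEPD ADPRC replicate 2. Without that library 1048 genes were called, and among them HSP42 (0.99, adjusted p = 7.7e-07), HSC82 (0.39, adjusted p = 0.00441) and SSA3 (-0.72, adjusted p = 0.0118).

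SSA1 and HSP12 were higher in minimal medium than in YEPD with and without the enzyme. Here and in the later comparisons of media, mock values are the background of the capture. Transcript levels in RNA taken before the capture were not measured, so a change between media need not be a change in expression. In mock libraries, SSA1 was 1.68-fold and HSP12 2.19-fold higher in minimal medium than in YEPD, HSP26 was 1.37-fold higher, and SSA3 was at 0.699 of its YEPD level. With 3 members called higher and 1 lower, the background was 7.29% of all tested genes higher and 22.4% lower. The median of all tested genes was -0.20, so each value below also has that shift inside it. Whether reads were counted with the same strand handling in both media is not given in the sources used here and was not tested, and the strand values given after the members differ sharply between media. They bear on SSA1, since the frame YAL004W lies on the opposite strand inside that gene. Without overlap between groups, 5 members were higher and 1 lower, beside 13.6% and 41.1% of all tested genes.

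SSA1 stood at 20873 ± 821 normalized counts (SD, n = 3) in mock libraries of minimal medium and at 12391 ± 476 in those of YEPD. No library of one medium came near the other, and the log2 change was 0.75 ± 0.13 (limma, adjusted p = 0.000599). This has the direction of genes with opposite-strand overlap (median 1.26 in mock libraries), and the part of strand handling in the SSA1 change was not tested. SSA2 stood at 24319 ± 936 and 23168 ± 627, which overlapped (0.07 ± 0.13, adjusted p = 0.697). HSP12 stood at 486 ± 63.9 and 221 ± 31.3, without overlap (1.13 ± 0.23, adjusted p = 0.00206). HSP26 stood at 185 ± 13.2 and 135 ± 3.34, also without overlap (0.45 ± 0.12, adjusted p = 0.0152), and was past the threshold except when minimal mock replicate 2 (adjusted p = 0.0572) or YEPD mock replicate 2 (adjusted p = 0.0556) was left out. SSA3 stood at 90.7 ± 9.66 and 129.7 ± 4.67 (-0.52 ± 0.15, adjusted p = 0.0194). The SSA3 call was lost with both count tools on recovered reads, edgeR (-0.36, adjusted p = 0.221) and DESeq2 (-0.37, adjusted p = 0.339). It was also lost under TMM scaling (-0.33, adjusted p = 0.131), quantile normalization (-0.35, adjusted p = 0.135) and removal of the coding-length trend (-0.28, adjusted p = 0.136), and without YEPD mock replicate 1 (adjusted p = 0.0671) or minimal mock replicate 2 (0.0533) or 3 (0.0713), and with the same total per library SSA3 was called higher (0.72, adjusted p = 0.00036).

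Of the members not called, HSP82 (0.17 ± 0.10, adjusted p = 0.211) and HSP104 (0.14 ± 0.15, adjusted p = 0.503) were higher in all 3 minimal mock libraries than in all 3 YEPD mock libraries. HSP82 passed the threshold with TMM scaling (0.36, adjusted p = 0.0231) and with DESeq2 (0.31, adjusted p = 0.0243). SSA4, HSP42 and HSC82 overlapped between media, with log2 changes of 0.12, 0.08 and -0.03.

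In ADPRC libraries, 3 members were higher and 1 lower in minimal medium than in YEPD, beside 7.05% and 25.7% of all tested genes. SSA1 (0.96 ± 0.13, adjusted p = 6.67e-05) and HSP12 (1.00 ± 0.23, adjusted p = 0.00487) were higher again, as was HSC82 (0.35 ± 0.11, adjusted p = 0.0295), and SSA3 was lower (-1.07 ± 0.15, adjusted p = 9.24e-05), except with the same total per library (0.39). The HSC82 call was lost without the unnumbered YEPD ADPRC library (adjusted p = 0.105), YEPD ADPRC replicate 3 (0.0533) or minimal ADPRC replicate 1 (0.0835) or 3 (0.103). It was also lost with the replicate block (0.30, adjusted p = 0.191), with quantile normalization (0.28, adjusted p = 0.169) and with only the groups compared in the fit (adjusted p = 0.17). These 4 members did not overlap between media, and with SSA2 (0.14 ± 0.13, adjusted p = 0.431) 4 members were higher without overlap, beside 8.38% of all tested genes, and 1 lower, beside 31.8%. HSP26, higher in minimal mock libraries, stood at -0.05 ± 0.12 here (adjusted p = 0.799). HSP42 stood at 0.60 ± 0.28 (adjusted p = 0.108) with all libraries and at 1.08 without YEPD ADPRC replicate 2 (adjusted p = 8.12e-12). Without that library 7 members were called, 6 of them higher. Over all 5490 tested genes, 1011 were called higher and 2162 lower without it, beside 387 and 1411 with all libraries.

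**Figure D3:**
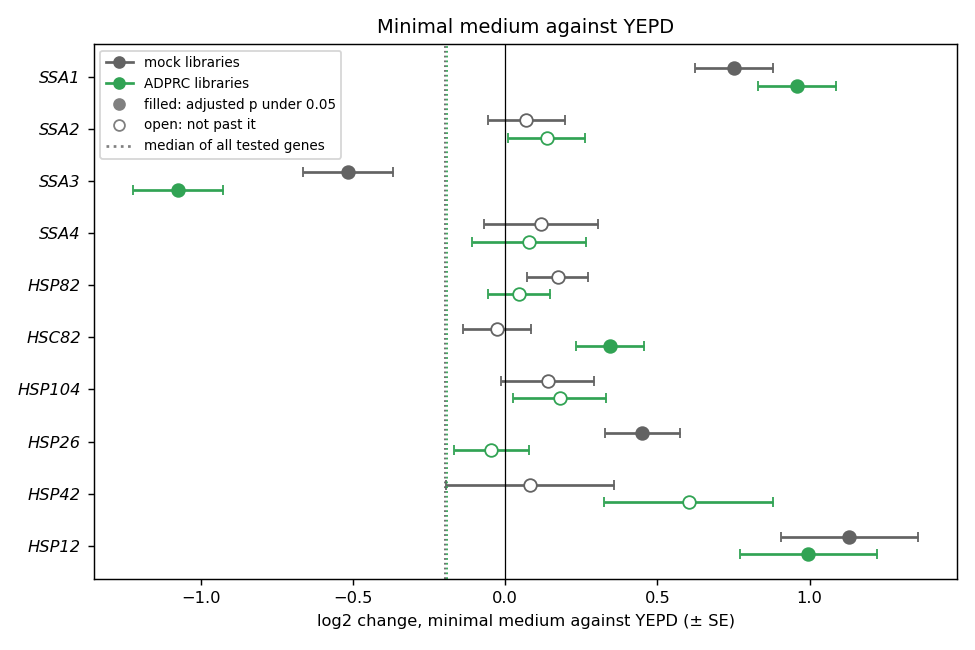
Log2 change of minimal medium against YEPD (x axis, ± SE) for each of the 10 genes, in mock and in ADPRC libraries; filled points had an adjusted p under 0.05 and dotted lines mark the medians of all tested genes (-0.20 and -0.19). SSA1 and HSP12 are filled on the right and SSA3 on the left in both kinds of library; with the same total per library SSA3 would lie on the right (0.72 and 0.39).

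The media differ in more than the members. Open reading frames on the Watson strand within ribosomal DNA took at most 0.046% of the reads of a minimal medium library and 52.3% to 63.5% of those of a YEPD library. The 15 tested genes with at least 30% of their span under a gene on the opposite strand had a median change between media of 1.26 in mock libraries, where the 5360 without such overlap stood at -0.20. No member is overlapped by an opposite-strand gene of the RefSeq table, but that table does not hold all of the counted identifiers. One it does not hold is YAL004W, a dubious frame on the opposite strand inside SSA1, which had 0 to 2 reads in minimal medium libraries and 0 in all YEPD libraries. Other identifiers outside the RefSeq table were not checked for overlap with the members. If strand was handled differently, reads from the overlapped part of SSA1 could be assigned differently in the media, so the SSA1 level in YEPD, its change between media, its ratio to SSA2 and their sum all carry this uncertainty. Growth medium and these differences between libraries cannot be told apart. Over all genes, the split of 400 higher and 1228 lower in mock libraries became 644 and 496 with TMM scaling and 5004 and 162 with the same total per library, and that of 387 and 1411 in ADPRC libraries became 601 and 471 and 5192 and 138.

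Paralog pairs show the balance within a library, where scaling between libraries drops out. In minimal medium SSA1 stood at 0.850 to 0.861 of SSA2 per 1000 bases with mock treatment and at 0.801 to 0.855 with ADPRC. In YEPD it stood at 0.521 to 0.541 with mock treatment and at 0.399 to 0.515 with ADPRC. The ratio was higher in each of the 6 minimal medium libraries than in each of the 6 YEPD libraries, and the part of strand handling at YAL004W in this split was not tested. In minimal medium HSP82 stood at 0.524 to 0.566 of HSC82 with mock treatment and at 0.318 to 0.401 with ADPRC, without overlap. In YEPD that Hsp90 ratio was 0.459 to 0.491 in mock and 0.4197 to 0.4503 in ADPRC libraries, again without overlap. SSA4 exceeded SSA3 by 5.09-fold to 20.2-fold per 1000 bases over all libraries, with the ratio highest in minimal ADPRC replicate 2.

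The genes of each pair are paralogs, and how similar their coding sequences are was not measured here and may differ between pairs. How reads with several positions were counted is not given in the sources used here, so levels within a pair are uncertain. A sum over the pair does not depend on how reads were split between its copies. It would still depend on whether reads with several positions were dropped. The sum of SSA1 and SSA2 depends also on how reads over YAL004W were counted. SSA1 and SSA2 together stood at 45192 ± 1749.7 normalized counts in mock libraries of minimal medium and 35559 ± 1071 in those of YEPD, without overlap. HSP82 and HSC82 together stood at 11303 ± 271 in the mock and 11417 ± 422 in the ADPRC libraries of minimal medium, which overlapped. In YEPD their sum was 10991 ± 387 in mock and 9526 ± 390.1 in ADPRC libraries, without overlap.

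**Figure D4:**
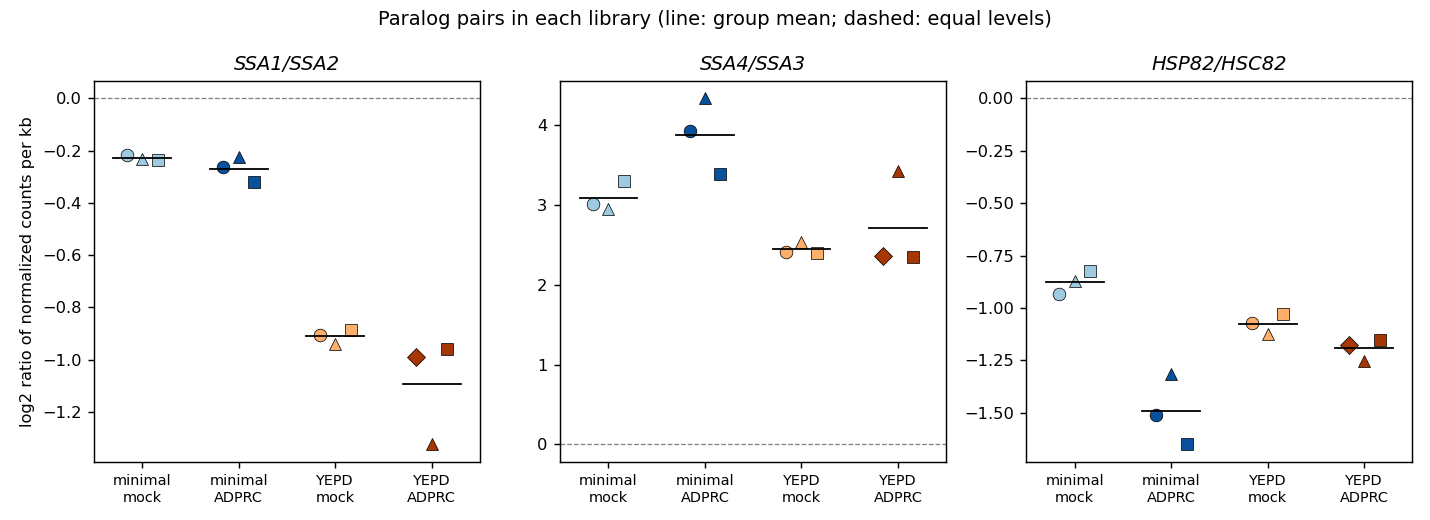
Log2 ratio of normalized counts per 1000 bases within 3 paralog pairs (y axis) in each library, by group; symbols mark replicates as in the plot of normalized counts, lines are group means and the dashed line marks equal levels. SSA1/SSA2 splits by medium, with group means of -0.23 and -0.27 in minimal medium and -0.91 and -1.09 in YEPD, and HSP82/HSC82 is lowest in minimal ADPRC at -1.49.

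Chaperone genes outside the 10 were also called in both directions in minimal medium ADPRC libraries, beside 14.2% of all tested genes higher and 14.6% lower. Some of them stand in more than 1 list. Removing the coding-length trend cut the calls over all genes in this contrast from 780 higher and 803 lower to 402 and 401. The list calls given here and in the next paragraph are from the reported fit, without that removal. Of 10 other Hsp70 proteins 3 were lower: ECM10, a mitochondrial paralog (-1.03 ± 0.28, adjusted p = 0.0177), SSZ1 of the ribosome-associated complex (-0.39 ± 0.09, adjusted p = 0.0109) and SSE1, an Hsp110 that acts as an exchange factor (-0.33 ± 0.11, adjusted p = 0.0356). Among the J-domain proteins that stimulate Hsp70, 5 of 22 were higher, including the mitochondrial iron-sulfur cochaperone JAC1 (0.75), the endoplasmic reticulum proteins ERJ5 (0.69) and HLJ1 (0.55), and 1 was lower, SCJ1 (-0.55). Of 7 nucleotide exchange factors, SNL1 (0.63) and MGE1 (0.62) were higher and SSE1 lower. The mitochondrial list had 3 of 10 higher, JAC1, MGE1 and the import tether TIM44 (0.50), and ECM10 lower. The endoplasmic reticulum list had 3 of 11 higher, ERJ5, the oxidase ERO1 (0.38) and the disulfide isomerase PDI1 (0.37), and SCJ1 lower.

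Of 12 Hsp90 cochaperones in minimal medium ADPRC libraries 3 were higher, TAH1 (0.97 ± 0.19, adjusted p = 0.00458), HCH1 (0.61) and the prolyl isomerase CPR6 (0.53), and 1 was lower, STI1, the adaptor between Hsp70 and Hsp90 (-0.33 ± 0.10, adjusted p = 0.0288). The same HCH1, CPR6 and STI1 made up the calls among 12 further targets of Hsf1. Of 14 subunits of the chaperonin CCT and of prefoldin, CCT3 alone was called (0.35). Of 6 tested among 9 other heat shock proteins, UBI4, the polyubiquitin gene, was higher (0.74 ± 0.13, adjusted p = 0.00269). Of 5 stress transcription factors 3 were lower: MSN2 (-0.44), SKN7 (-0.41) and YAP1 (-0.40). The Msn2 and Msn4 general stress list had 4 of 26 tested genes higher, led by TFS1 (0.85), SPI1 (0.64) and HXK1 (0.39), and 4 lower, led by NTH1 (-0.55), GAC1 (-0.41) and TSL1 (-0.39).

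In YEPD, calls among these genes were higher in ADPRC than in mock libraries, as were 270 of the 300 calls over all tested genes (4.92% higher and 0.546% lower). The J-domain list had 3 of 22 higher, PAM18 (0.71), ERJ5 (0.65) and XDJ1 (0.48). The other lists with calls had 1 higher each: SNL1 (0.69), TAH1 (0.76), TIM44 (0.69), ERJ5 again in the endoplasmic reticulum list, TFS1 (0.84), the alpha-factor gene MF(ALPHA)2 (0.83) and, among markers of growth past glucose exhaustion, the alcohol dehydrogenase ADH2 (0.85).

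Many general stress genes, glycogen and trehalose enzymes among them, were higher in minimal medium. In mock libraries 17 of 26 were higher in minimal medium and 1 lower, with a median log2 change of 0.50, while 7.29% of all tested genes were higher. PGM2, a phosphoglucomutase, stood at 708 ± 41.1 normalized counts in minimal medium against 215 ± 14.1 in YEPD (1.72 ± 0.18, adjusted p = 4.63e-06). GPH1, glycogen phosphorylase, stood at 722 ± 13.0 against 305 ± 15.8 (1.24 ± 0.09, adjusted p = 1.51e-07), and TFS1, an inhibitor of carboxypeptidase Y, changed by 1.08. GRE1 was the gene that was lower (-2.09). In ADPRC libraries 14 of 26 were higher and 2 lower, with a median of 0.38, beside 7.05% and 25.7% of all tested genes. With TMM scaling the mock count was 19 higher and 1 lower, beside 644 and 496 over all tested genes. With the same total per library it was 25 and 1, where 5004 of all 5490 tested genes were called higher, so that count is near the background. HSP12 is a classic member of the same response, although it was left out of the list as a member here. The other stress-induced members did not all go with it. HSP26 was called higher in mock libraries (0.45) but not in ADPRC libraries (-0.05), and SSA3 was lower in both. In mock libraries SSA4 (0.12), HSP104 (0.14), HSP82 (0.17) and HSP42 (0.08) were not called, nor were they in ADPRC libraries. Whether the HSP12 change belongs to a general stress response was not tested.

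Most markers of growth past glucose exhaustion, genes for using ethanol, lactate and fatty acids, were lower in minimal medium, although with the same total per library their median in mock libraries was -0.064, with 1 higher and 4 lower. Of 10 tested glucose-exhaustion genes 8 were lower in minimal medium in mock libraries, with a median of -1.27, and 7 in ADPRC libraries, with a median of -1.58. Over all tested genes 22.4% were lower in mock and 25.7% in ADPRC libraries, with medians of -0.20 and -0.19, and the counts of the next marker lists, in mock libraries, stand beside the same 22.4%. FBP1 (-3.40), JEN1 (-3.37) and POX1 (-2.94) led in mock libraries. The summed level of all 11 ran from 4320.2 to 4988 in mock libraries of minimal medium and from 3849 to 4958 in those of YEPD, most of it ADH2. The 3 tested sporulation markers were lower in minimal medium too, and the summed level of all 5 ran from 25.3 to 31.4 in mock libraries of minimal medium and from 142 to 174 in those of YEPD. Alpha-cell markers were lower for 3 of 4, led by MF(ALPHA)2 (-1.72), and a-cell markers for 2 of 3 tested, STE2 (-1.02) and STE6 (-0.72). The part of these differences in the results for SSA1 and HSP12 was not tested.

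Other chaperones were called between media in both directions, beside 7.29% of all tested genes higher and 22.4% lower in mock libraries and 7.05% and 25.7% in ADPRC libraries. In mock libraries the ribosome-bound Hsp70 SSB1 was higher in minimal medium (0.69 ± 0.21, adjusted p = 0.0252) with SSZ1 (0.30), and the endoplasmic reticulum exchange factor LHS1 was lower (-0.55), which made 2 higher and 1 lower of 10 other Hsp70 proteins. JJJ1, a J-domain protein of ribosome biogenesis, was higher (1.04) and SEC63, of the translocon, lower (-0.45). Among Hsp90 cochaperones CPR6 (0.41) and AHA1 (0.33) were higher and CPR7 (-0.47) and CDC37 (-0.42) lower. GIM5 (0.85) and CCT6 (0.58) of the CCT and prefoldin list, HSP60 (0.53) and HSP78 (0.25) of the mitochondrial list, and HSP31 (1.05) and UBI4 (0.38) of the other heat shock proteins were higher. SKN7 (-0.49) and MSN4 (-0.38) were the stress factors that were lower. In ADPRC libraries the change was 1.01 ± 0.12 for CPR6 (adjusted p = 2.37e-05) and 1.15 ± 0.13 for UBI4 (adjusted p = 1.09e-05).

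**Figure D5:**
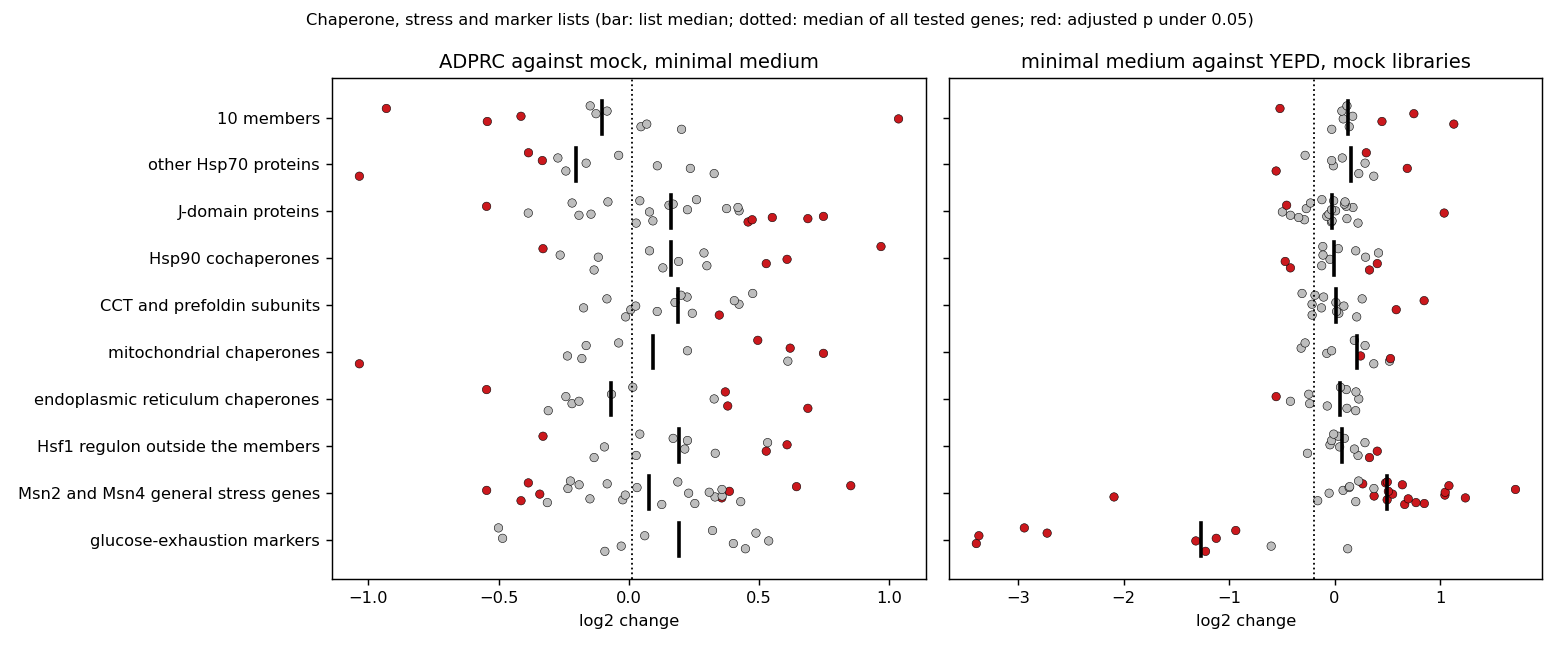
Log2 change (x axis) of each tested gene in the 10 members and in 9 chaperone, stress and marker lists, for ADPRC against mock in minimal medium and for minimal medium against YEPD in mock libraries; red points had an adjusted p under 0.05, bars are list medians and dotted lines the median of all tested genes. The general stress genes lie to the right between media (median 0.50) and the glucose-exhaustion markers to the left (median -1.27, or -0.064 with the same total per library).

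Genes with the pattern most like that of SSA1, SSA4, HSP82 and HSP12 were sought by Pearson r of log2 values over the 12 libraries, which share groups and depth, so r is a description only. SSA1 was closest to LEU1 (0.99), ARG56 (0.99) and MET17 (0.98). HSP12 was closest to BAP3 (0.97), SAM1 (0.97) and GPM1 (0.97). HSP82 was closest to HIS4 (0.96), PSA1 (0.93) and HXK2 (0.92), and SSA4 to FES1 (0.92), GLN1 (0.87) and HXT6 (0.84).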

How the data were processed

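The 10 genes and the gene lists were chosen with earlier results of these data known. The deposited table gives a normalized signal per gene and library. As checked on the values, the authors had divided whole read counts by a factor for each library: each of the 12 columns held only whole multiples of its smallest step (100% of values, tolerance 0.01 reads). In YEPD mock replicate 2 that step was too near 1 to prove the recovery, so the count tools used 11 libraries. The submitters' processing notes name FastQC, Trimmomatic, Bowtie, HTSeq and DESeq. Versions, settings, genome build, annotation and strand handling are not given there. RNA was not depleted of ribosomal RNA, per the labels' protocols. No column belonged to another sample (0).

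Values were taken as log2(value + 1), which slightly understates changes of low genes. Identifiers with a mean of at least 10 were kept (5490). The limma package (3.58.1, under R 4.3.3) fitted 4 group means with trend and robust estimation. For each of the 5 contrasts, two-sided p-values were adjusted by the Benjamini-Hochberg method over all tested identifiers and called at 0.05. Recovered reads were tested with edgeR 4.0.16 and DESeq2 1.42.0 as alternatives. Symbols and coding lengths came from the RefSeq gene table, which matched all 10 members and 5919 of 6607 identifiers. Floors of 3 reads cover counting error only. All members were named in each contrast; from each list, up to 3 genes past the threshold in each direction, by size of change. Lists were the other Hsp70 proteins, J-domain proteins, nucleotide exchange factors, Hsp90 cochaperones, CCT and prefoldin, mitochondrial and endoplasmic reticulum chaperones, other heat shock proteins, Hsf1 and Msn2/Msn4 targets, stress factors, alpha-cell, a-cell, sporulation and glucose-exhaustion markers and the deleted genes. The fit was tested on simulated data. Promoter motifs and sequences were not used here.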

Additional observations from a re-analysis of the deposited data

Results flagged for a closer look

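HSC82, the constitutive Hsp90 gene, stood on opposite sides of mock in the ADPRC libraries of the media, with neither change past the test (0.20, adjusted p = 0.176 in minimal medium and -0.17, adjusted p = 0.321 in YEPD). All 3 ADPRC libraries were above all 3 mock libraries in minimal medium and all 3 were below in YEPD. The difference between the media was 0.37 on the log2 scale (SE 0.16, limma adjusted p = 0.545, unadjusted p = 0.033), so it failed the correction; over 24 alternatives it kept its sign, with adjusted p from 0.00441 to 0.956 and 2 calls, 1 of them without YEPD ADPRC replicate 2. The opposite signs were lost under 3 of the alternatives: the changes in minimal medium and YEPD were -0.13 and -0.35 with quantile normalization, 0.64 and 0.02 with the same total per library, and 0.43 and 0.001 with the coding-length trend removed.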

How the results depend on the processing

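Of the 10 members, 4 were called for ADPRC against mock in minimal medium, 0 in YEPD, 0 for the difference between media, 4 for minimal medium against YEPD in mock and 4 in ADPRC libraries. Over the fits that left out 1 library each, these counts ran from 2 to 5, 0 to 2, 0 to 3, 2 to 5 and 3 to 7. Without minimal ADPRC replicate 1 the count in minimal medium was 2, and without minimal mock replicate 2 the count between media in mock libraries was 2. Leaving out YEPD ADPRC replicate 2 gave 2, 3 and 7 for YEPD, the difference and the ADPRC libraries. Over all genes that fit called 414, 1048 and 3173, beside 300, 0 and 1798 in the reported fit. Library weights gave 2, 3 and 7 members as well. Over all genes they called 532 higher and 283 lower in YEPD, 534 and 587 for the difference, and 1111 and 2466 in ADPRC libraries. The weights were estimated gene by gene, a method chosen after the default did not converge on these data. In YEPD, quantile normalization gave 1 and DESeq2 gave 1. The same total per library gave 10 between media in mock and 10 in ADPRC libraries, since it moved the median of all tested genes to 1.03 and 1.28. It also turned HSP82 in minimal medium to 0.020, SSA3 between media to 0.72 in mock and 0.39 in ADPRC libraries, HSC82 in mock to 1.22 and HSP26 in ADPRC libraries to 1.43. Removing a trend with coding length turned HSP12 in minimal medium to -0.48 (adjusted p = 0.0243) and ended the calls of HSP82 (-0.19, adjusted p = 0.187) and HSP42 (0.92, adjusted p = 0.0551). SSA3 was called for ADPRC in minimal medium in 25 of 25 alternatives, HSP26 in 24, HSP82 in 22 and HSP42 in 21. SSA1 and HSP12 between media were called in 25 of 25 in mock and in ADPRC libraries. SSA3 was called in 16 as lower and 1 as higher in mock, and HSC82 in 18 in ADPRC libraries. A fit without a library from outside a contrast leaves its log2 change as it was and alters only the spread. None of the alternatives changed how strands were counted, so these counts do not bear on that uncertainty for SSA1.

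Same-numbered mock and ADPRC libraries did not deviate together from their group means (r = -0.023, -0.086 and -0.059 in minimal medium, -0.036 and -0.146 in YEPD, over 5490 genes). The YEPD ADPRC mean includes replicate 2, the library that stood apart, so the YEPD values say little about pairing. The numbers were not taken as pairs. A fit with the replicate block on the 11 numbered libraries gave 4, 0, 0, 4 and 3 called members; it ended the HSC82 call in ADPRC libraries (0.30, adjusted p = 0.191). Over all genes the calls ran from 548 to 2724 in minimal medium (1583 in the reported fit), from 46 to 1109 in YEPD (300), from 0 to 1121 for the difference (0), from 745 to 5166 in mock (1628) and from 876 to 5330 in ADPRC libraries (1798). Of the named genes of the lists, 10 of 29, 2 of 9, 22 of 32 and 21 of 28 stayed past the threshold in each of the 12 fits without 1 library, for ADPRC in minimal medium and in YEPD and for the media in mock and ADPRC libraries; the same total per library turned the sign of 7, 0, 9 and 7. The difference between media has no value when only the groups compared are fitted. SSA3 rests on 46 to 144 reads per library, and what size of change could be detected at that depth was not measured.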

Other observations

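The members did not all vary together, and the values below include the differences between groups. Across the 12 libraries, which share groups and depth, Pearson r of log2 values was 0.76 for SSA1 with HSP12, 0.74 for HSP82 with HSP26, 0.72 for HSP104 with HSP12 and 0.72 for HSP104 with HSP42. It was -0.81 for SSA3 with HSP42, -0.77 for SSA3 with HSP12 and -0.01 for HSP82 with HSC82. SSA4, HSP104, HSP12 and HSP42 were each highest in replicate 2 within minimal ADPRC and within YEPD ADPRC libraries, a pattern seen after the values were examined and given without a test.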
